A study of Mus musculus with 12 samples.

Results

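Solute carriers are the membrane proteins that move small molecules without spending ATP directly: amino acids, sugars, vitamins, nucleosides, metals and ions cross the plasma membrane or the membranes of organelles through them. Members of a numbered family share sequence, and families differ in what they carry and in whether they exchange, co-transport or simply pass their substrate. An activated B cell builds mass, divides and secretes, and nutrient uptake, control of cell pH and supply of the Golgi and the mitochondria all run through these proteins. IL-4 is a cytokine that acts on B cells largely through the transcription factor STAT6.

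The genes described here were chosen by name and by level. Of 372 gene names of the form Slc, family, member in a deposited table of 34650 gene names, 8 amino acid carriers were set aside by name and 203 did not reach the level. The remaining 161 had a mean of at least 7 on the log2 scale of that table in at least 1 of the 4 groups. Because measured levels chose these genes, the levels themselves are given as description. Of the 161, 148 reached 7 in all 4 groups and are called the steady members; 13 reached it in 1 to 3 groups, which makes a difference between groups part of how they entered, so they are described apart and support nothing. The members nearest the limit were Slc35e2, with a highest group mean of 7.048, and Slc4a3, with 7.059; just outside were Slc4a8 at 6.864 and Slc23a3 at 6.802. Of the 161 names, 6 carry further letters and do not name a carrier (Slc22a13b-ps, Slc2a4rg-ps, Slc4a1ap, Slc7a6os, Slc9a3r1 and Slc9a3r2).

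RNA was measured on 12 one-colour arrays, 3 per group. The cells were purified splenic B cells of female BALB/c mice aged 9 weeks, wild type or STAT6 ko (knockout). Every culture, the controls included, was activated for 4 days with lipopolysaccharide at 2 µg/ml plus anti-CD40 antibody at 10 µg/ml. IL-4 was added at 25 ng/ml (groups WT_IL-4 and STAT6_IL-4) or left out (WT_contr and STAT6_contr), so the controls are activated B cells, not resting ones. The labels speak of triplicates without saying whether these were separate animals, so the p-values measure only the spread between these samples, and they do not say how the knockout was made or in which cells. In bulk RNA, fewer cells of a type and less RNA per cell cannot be told apart.

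The B cell markers Ms4a1, Cd79a, Cd79b and Pax5 were well above background on all 12 arrays. With IL-4 in wild type Cd79a fell by 0.91 and Pax5 by 0.78, Cd79b rose by 0.64 and Ms4a1 gave -0.02, not past the test. In the knockout Ms4a1, Cd79b and Pax5 rose by 0.18, 0.15 and 0.22, and Cd79a gave -0.15, not past the test. Stat6 fell by 1.94 on the log2 scale in the knockout controls, and its probe still read well above background there. Of the T cell markers, 4 of 5 were well above background on all 12 arrays, with a summed signal of 1.99 to 2.75 times the 75th percentile of the array, and Cd8a was on none. The summed myeloid list (4 of 5 well above background on all 12 arrays) read at most 19.6 in WT_IL-4, 26.9 to 29.8 in the controls and 35.6 to 38.7 in STAT6_IL-4. With IL-4, Emr1 of that list fell by 0.92 in wild type and rose by 0.55 in the knockout, while Cd14 rose by 0.38 in wild type and Cd14, Itgam and Csf1r gave -0.31, -0.24 and -0.25 in the knockout, not past the test. The 4 plasma cell markers summed to 231 to 236, 134 to 149 and 101 to 104 in those groups; Xbp1 rose by 0.87 in wild type and fell by 0.90 in the knockout, and Prdm1 fell in both, by 2.81 and 1.69. Of 6 erythroid markers 1 was well above background on all 12 arrays and 3 on none, with a sum of 1.12 to 2.39. The part of these cells in the results below was not tested. The file headers put the 6 wild-type arrays on slide 1 together with STAT6_contr 1 and 2, and STAT6_contr 3 on slide 2 together with STAT6_IL-4, so the IL-4 comparison in wild type lies within 1 slide and the comparisons that involve the knockout do not. Array levels below are log2 signals relative to the 75th percentile of the array, and a level is compared only with other levels of the same probe.

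The first comparison asks how IL-4 changed these genes in cells that have STAT6. IL-4 raised 53 of the 148 steady members in wild type and lowered 37 at an adjusted p under 0.05 (limma, Benjamini-Hochberg over 16497 genes), and 58 did not pass. The same test called 26.4% of all genes tested higher and 30.8% lower. Of the 12476 genes at 7 or more in all groups it called 3509 higher and 3889 lower. At a change of at least 2-fold, 13 steady members rose and 3 fell; among the 12476 genes that also reached 7 in all groups, 3.95% rose and 4.08% fell that far, and among all genes tested 5.72% rose and 6.95% fell. The median change was 0.06 for the steady members, -0.03 for the 12476 genes and -0.04 for all genes tested. The arrays of the control and IL-4 groups did not overlap in 110 of the 148, and in 72.8% of the 12476 genes at that level.

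**Figure D1:**
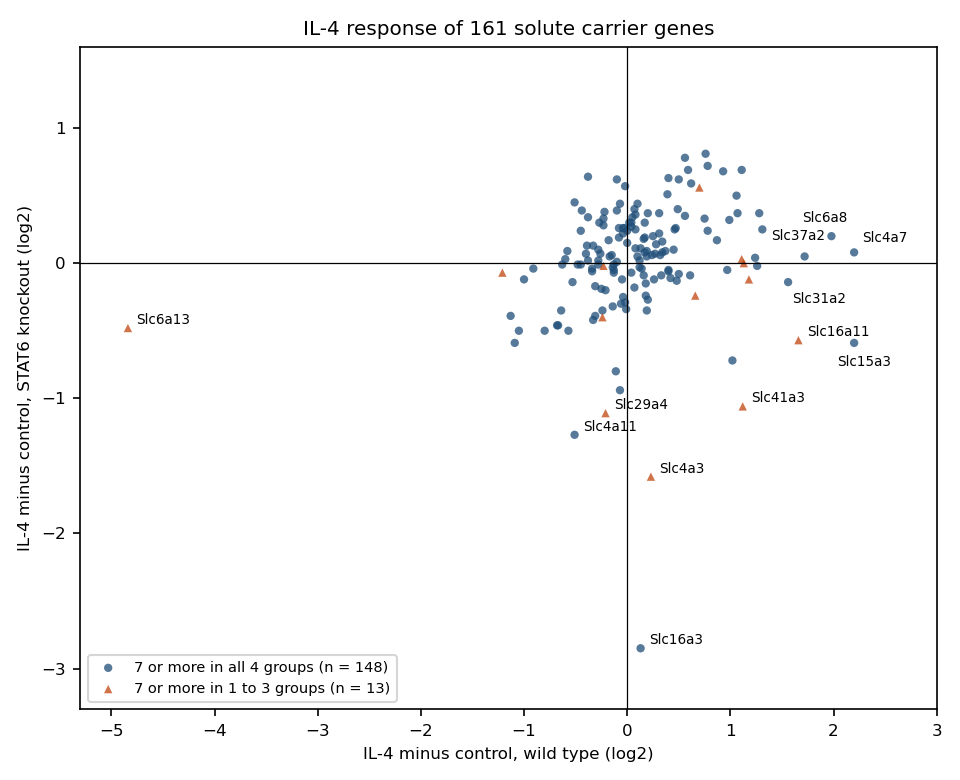
Log2 difference between IL-4 and control arrays in wild type (horizontal axis) and in STAT6 knockout (vertical axis) for each of the 161 genes, 3 arrays per group. Of the genes that rose most in wild type, Slc4a7 at 2.20 lies close to the horizontal line, Slc15a3 below it and Slc43a2 above it. Slc16a3 lies lowest on the vertical axis at -2.85.

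Among carriers of amino acids and peptides, Slc15a3, which takes histidine and small peptides across the lysosomal membrane, showed the largest rise. It read 2.14, 2.14 and 2.25 in WT_contr, 4.42, 4.39 and 4.33 in WT_IL-4, 2.10, 2.03 and 1.94 in STAT6_contr, and 1.35, 1.41 and 1.52 in STAT6_IL-4. The 3 wild-type IL-4 arrays stood clear above all others and the 3 knockout IL-4 arrays clear below all others. The rise in wild type was 4.61-fold (log2 2.20 ± 0.06 SE, adjusted p = 1.11e-09), and in the knockout the gene fell by 0.59 (adjusted p = 5.9e-05). Its probe lies at chr19:10931798-10932148 in mm9.

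Slc6a8, the creatine transporter, rose 3.95-fold in wild type (1.98 ± 0.15, adjusted p = 1.33e-06). Its arrays read -1.43, -1.55 and -1.60 without IL-4 and 0.52, 0.41 and 0.45 with it, while the 6 knockout arrays stayed between -1.80 and -1.08, with knockout control 1 the lowest. Slc43a2, a carrier of large neutral amino acids, rose 2.42-fold from 0.70 to 0.80 up to 1.98 to 2.04. It also rose in the knockout, by 0.25 to 0.44 in the 12 fits that each left out 1 array. With slide as a block that rise did not pass (adjusted p = 0.115). Slc43a3, which belongs to the same family but carries purine nucleobases, rose 2.15-fold in wild type and 1.61-fold in the knockout. In all, 8 of the 15 steady members of this class rose and 4 fell, against 26.4% and 30.8% of all genes tested. The class median was 0.25. Members of the class that fell included Slc38a6 (-0.60) and Slc43a1, another neutral amino acid carrier (-0.57).

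Of the transporters of ions and pH, Slc4a7, which brings bicarbonate into the cell together with sodium and so counters acid, rose 4.59-fold (2.20 ± 0.08, adjusted p = 7.19e-09). It read 2.30, 2.31 and 2.21 in WT_contr, 4.51, 4.41 and 4.49 in WT_IL-4, 2.23, 2.34 and 2.30 in STAT6_contr, and 2.48, 2.46 and 2.16 in STAT6_IL-4. The 9 arrays outside WT_IL-4 lay together, far below the other 3. Its second probe rose as well, by 2.84. Of the cotransporters that move chloride with potassium or sodium, Slc12a7 rose 2.49-fold, Slc12a4 1.72-fold and Slc12a2 by 0.87 on the log2 scale, whereas Slc12a8 fell 2.20-fold. Slc12a7 also rose in the knockout, by 0.20 to 0.31 in the fits that each left out 1 array. The call was lost in 4 of these 12 and with slide as a block (adjusted p = 0.102). Slc9a7, a sodium and proton exchanger of the Golgi, was 1.88-fold lower: it read 4.47 to 4.59 without IL-4 and 3.57 to 3.65 with it, against 4.27 to 4.41 in the knockout. The class as a whole had 8 members up and 7 down of 19, against 26.4% and 30.8% of all genes tested. Its median was 0.04.

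Carriers of the endoplasmic reticulum and Golgi, classed by family number, were 23 of the 148 steady members. They gave 3 of the 13 large rises. Slc37a2, which exchanges glucose 6-phosphate for phosphate at the endoplasmic reticulum, read -0.43, -0.36 and -0.38 without IL-4 and 1.32, 1.39 and 1.28 with it, a 3.30-fold rise (1.72 ± 0.05, adjusted p = 1.87e-09), and -0.55 to -0.38 on the knockout arrays. Slc35f5 rose 2.39-fold and Slc35e4 2.03-fold; both belong to the nucleotide sugar transporter family. Slc35e4 read -0.47 to -0.27 in WT_contr, 0.61 to 0.68 in WT_IL-4, -0.35 to -0.07 in STAT6_contr and -1.06 to -0.81 in STAT6_IL-4, so no group with IL-4 overlapped its control and the knockout moved the other way. The 23 members of this class were 7 up and 4 down, against 26.4% and 30.8% of all genes tested, with a median of -0.07. Slc17a9, which fills vesicles with ATP and other nucleotides, rose 2.09-fold in wild type and by 0.50 in the knockout.

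Metal transporters changed in both directions. Slc31a2, a copper transporter of internal membranes, rose 2.96-fold (1.56 ± 0.06, adjusted p = 4.61e-09), with 0.74 to 0.79 on control arrays, 2.25 to 2.40 on IL-4 arrays and 0.35 to 0.58 in the knockout. Slc31a1, the main copper importer, rose 1.52-fold and Slc48a1, which carries haem out of lysosomes, 2.10-fold, while Slc11a2, which imports iron, gave -0.01 and did not pass. Slc48a1 also rose in the knockout, by 0.26 to 0.48 in the fits that each left out 1 array. The call was lost in 3 of these 12 and with slide as a block (adjusted p = 0.406). Slc30a4, which loads zinc into vesicles, rose 2.36-fold, with 3.40, 3.40 and 3.45 against 4.66, 4.65 and 4.66. Slc39a4, a zinc importer of the plasma membrane, fell 2.12-fold, from between 3.11 and 3.18 to between 2.02 and 2.06; it also fell in the knockout, by 0.59. Of the 15 steady zinc transporters 6 rose and 2 fell in wild type, against 26.4% and 30.8% of all genes tested.

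**Figure D2:**
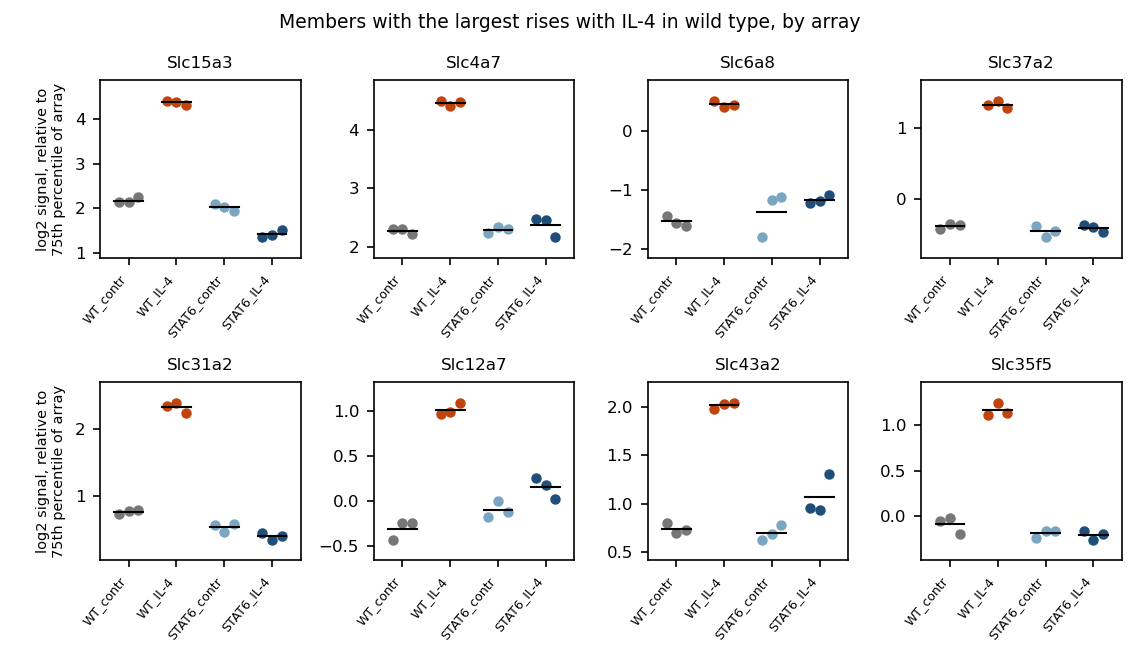
Log2 signal relative to the 75th percentile of each array (vertical axis) for the 8 steady members with the largest rises with IL-4 in wild type, one point per array and a line at the mean of each group of 3. In every panel the 3 WT_IL-4 arrays lie above the other 9.

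To set the rises beside the regulatory sequence, the 250 bases before the start of the gene were read for those 3 steady members that have an entry in the promoter table and the largest tested difference between the IL-4 responses of the genotypes (RefSeq, GRCm38.p6). The motif searched, on both strands, was TTC and GAA separated by 4 bases (TTCNNNNGAA), the spacing that STAT6 is known to prefer, and the same with 3 bases between (TTCNNNGAA), the spacing of other STATs. The windows were chr14:14718534-14718783 on the plus strand for Slc4a7, chr11:3914665-3914914 on the minus strand for Slc35e4 and chr4:62286179-62286428 on the plus strand for Slc31a2, each written 5′ to 3′ on the strand of the gene with a match in capitals.
Slc4a7: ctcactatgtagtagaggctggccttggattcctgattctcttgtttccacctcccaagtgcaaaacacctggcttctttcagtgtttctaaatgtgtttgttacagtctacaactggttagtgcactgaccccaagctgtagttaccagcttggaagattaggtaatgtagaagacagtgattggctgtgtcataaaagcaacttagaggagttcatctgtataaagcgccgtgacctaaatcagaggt
Slc35e4: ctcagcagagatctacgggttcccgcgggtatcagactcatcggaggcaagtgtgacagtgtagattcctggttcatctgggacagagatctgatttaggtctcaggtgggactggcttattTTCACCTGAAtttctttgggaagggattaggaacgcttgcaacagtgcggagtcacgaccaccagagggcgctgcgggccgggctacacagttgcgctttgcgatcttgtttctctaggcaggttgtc
Slc31a2: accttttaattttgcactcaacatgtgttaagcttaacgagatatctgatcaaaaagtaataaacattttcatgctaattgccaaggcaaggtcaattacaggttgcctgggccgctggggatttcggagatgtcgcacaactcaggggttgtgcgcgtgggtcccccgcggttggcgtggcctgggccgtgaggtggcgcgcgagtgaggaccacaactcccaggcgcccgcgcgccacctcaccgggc
Slc35e4 held the first motif once, at position -128 counted from the start of the gene; neither motif was found in the windows of Slc4a7 and Slc31a2. Of 27025 genes with such a window 6.8% hold the first motif and 8.1% the second in this window, and of the 122 members with an entry 6.6% and 8.2%. Of the 13 steady members that rose at least 2-fold, 8 had an entry and 2 of these, Slc35e4 and Slc43a2, held the first motif and 0 the second. A match is a run of letters, not a site known to be bound.

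Among the steady members the largest falls in wild type were smaller than the largest rises. Besides Slc12a8 and Slc39a4, Slc27a3, which activates long fatty acids with coenzyme A, fell 2.06-fold (-1.05 ± 0.10, adjusted p = 7.77e-06), from 0.71, 0.41 and 0.56 to -0.31, -0.50 and -0.64, and Slc27a1 of the same family fell 1.54-fold. Slc45a4 fell 1.99-fold, just short of the fold limit. Slc46a1, the proton-coupled folate transporter, was 1.75-fold lower and Slc2a9, a urate carrier of the glucose transporter family, 1.59-fold lower. Slc46a1 and Slc2a9 fell in the knockout too, by 0.50 and 0.46, the first not past the test with slide as a block (adjusted p = 0.177). Slc27a3 and Slc12a8 also fell there, by 0.50 and 0.39. With slide as a block they gave -0.53 and -0.64 (adjusted p = 0.023 and 0.0127). The knockout call of Slc12a8 was lost in 6 of the 12 fits that each left out 1 array. Slc16a13 of the monocarboxylate family fell by 0.64 in wild type and 0.35 in the knockout, the latter not past the test with slide as a block (adjusted p = 0.0514).

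**Figure D3:**
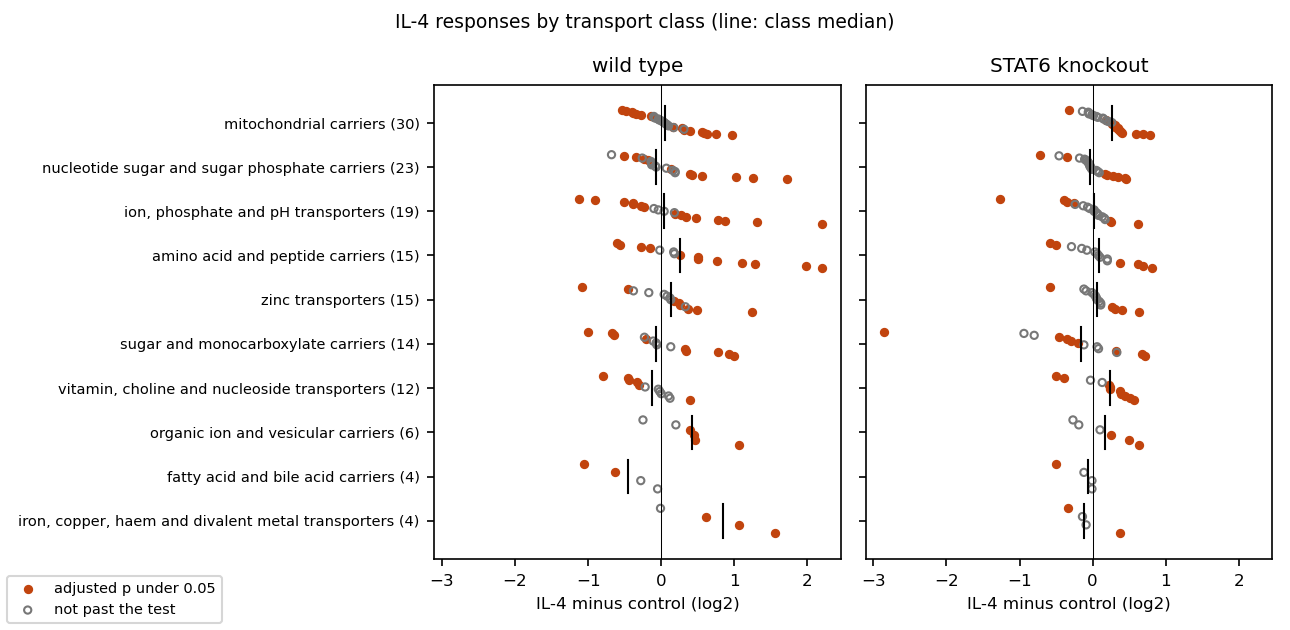
Log2 difference between IL-4 and control arrays (horizontal axis) in wild type and in STAT6 knockout for the steady members of each class of carriers with 4 or more; filled points passed an adjusted p under 0.05 and a vertical line marks the class median. The mitochondrial carriers spread around 0.05 in wild type. In the knockout their median is 0.26, beside 0.08 for all genes at 7 or more in all groups.

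The next comparison asks what IL-4 did without STAT6. In the knockout 51 of the 148 steady members rose and 19 fell, against 27.5% and 14.7% of all genes tested. Of the 12476 genes at 7 or more in all groups, 4181 rose and 1638 fell. The changes of the steady members were small. None rose 2-fold, and 2 fell that far, Slc16a3 and Slc4a11; 0.521% and 1.42% of the genes at 7 or more in all groups, and 0.788% and 2.73% of all genes tested, rose or fell 2-fold. With slide as a block, which compares knockout control 3 with the knockout IL-4 arrays, 35 rose and 13 fell, and with median scaling 57 rose and 8 fell. The median was 0.07, beside 0.08 for the 12476 genes at 7 or more in all groups and 0.05 for all genes tested. That median moves with the scaling: on median-scaled arrays it is 0.20 for all genes tested in this comparison, so small rises in the knockout are relative to the scaling used.

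Some members rose in both genotypes. Slc38a7, which exports glutamine from lysosomes, read 0.52 to 0.69 in WT_contr and 1.29 to 1.40 in WT_IL-4, and 0.44 to 0.61 in STAT6_contr and 1.29 to 1.35 in STAT6_IL-4. Its rise was 1.69-fold in wild type and 1.75-fold in the knockout (adjusted p = 2.8e-06 and 8.81e-06), and the difference of the responses was -0.05 ± 0.09 (adjusted p = 0.686). Slc2a12, a glucose transporter, rose 1.72-fold and 1.65-fold with a difference of 0.06 ± 0.09, and Slc25a1, the citrate carrier of mitochondria, 1.51-fold and 1.62-fold with a difference of -0.10 ± 0.10. Of the 148 steady members, 25 were higher with IL-4 in both genotypes and 12 were lower in both. Of the 12476 genes at that level 1903 (15.3%) were higher in both and 931 (7.46%) lower in both. The 25 were among 53 members higher in wild type and 51 in the knockout, and the 12 among 37 and 19 lower. For the 12476 genes, the 1903 were among 3509 higher in wild type and 4181 in the knockout. The 931 were among 3889 and 1638 lower.

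Mitochondrial carriers, which exchange metabolites and nucleotides across the inner membrane, were the largest class. In the knockout 16 of 30 rose and 1, Slc25a45, fell (-0.32), against 27.5% and 14.7% of all genes tested. The class median there was 0.26, beside 0.08 for the 12476 genes at 7 or more in all groups. Of these genes 4181 rose and 1638 fell. In wild type 9 of the class rose and 7 fell, with a median of 0.05, against 26.4% and 30.8% of all genes tested. The knockout median of the class was 0.41 with median scaling and 0.18 with quantile scaling, where that of all genes tested was 0.20 and 0.02. It was 0.25 with the slide block and 0.16 with the deposited values. Under these alternatives, in that order, 17, 12, 13 and 11 members rose. Slc25a33, the pyrimidine nucleotide carrier, showed the largest rise, from between 2.29 and 2.41 to between 3.08 and 3.16 (0.78 ± 0.05, adjusted p = 1.91e-06), and it also rose in wild type, by 0.56. The iron importers Slc25a37 and Slc25a28 rose by 0.39 and 0.34 in the knockout and gave -0.10 and 0.05, not past the test, in wild type. Of the ADP/ATP carriers, Slc25a4 fell by 0.48 in wild type and gave -0.01 in the knockout, and Slc25a5 fell by 0.27 in wild type and rose by 0.30 in the knockout.

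Transporters of vitamins, choline and nucleosides had a knockout median of 0.24, with 8 of 12 up and 2 down, against 27.5% and 14.7% of all genes tested. In wild type the class median was -0.13, with 1 up and 5 down, against 26.4% and 30.8%. The knockout count fell to 5 up with quantile scaling and to 4 up with the deposited values (median 0.14), with slide as a block, without knockout IL-4 array 1 and without knockout IL-4 array 2, and it was 5 without knockout control 2. Slc29a1, an equilibrative nucleoside transporter, was the member that rose in both genotypes, by 0.39 and 0.51. Slc19a1, the reduced folate carrier, fell by 0.44 in wild type and rose by 0.39 in the knockout.

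In all, 9 steady members were called in opposite directions in the genotypes, as were 7.52% of the 12476 genes at that level. Slc15a3 and Slc35e4 rose in wild type and fell in the knockout, while Slc19a1, Slc25a32, Slc25a5, Slc28a2, Slc35a1, Slc35b4 and Slc35g1 fell in wild type and rose in the knockout. Slc35b4, a transporter of UDP-sugars into the Golgi, read 1.25, 1.23 and 1.33 in WT_contr, 0.70, 0.80 and 0.79 in WT_IL-4, 1.13, 1.08 and 1.08 in STAT6_contr, and 1.57, 1.65 and 1.42 in STAT6_IL-4. Neither IL-4 group overlapped its control, and the difference of the responses was -0.96 ± 0.09 (adjusted p = 1.45e-05). The responses of the genotypes share no arrays. With slide as a block the knockout calls of Slc25a5, Slc28a2 and Slc35a1 were lost (adjusted p = 0.0524, 0.0522 and 0.168).

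The difference between the responses, wild type minus knockout, was tested directly. It passed for 74 of the 148 steady members, 36 higher and 38 lower, against 16.4% and 28.3% of all genes tested. Of the 12476 genes at 7 or more in all groups, it passed for 1984 higher and 3946 lower. At 2-fold it passed for 10 steady members higher and 1 lower, while 5.61% and 5.03% of all genes tested passed in those directions. Over all 161 members, those that entered through 1 to 3 groups included, 16 were higher and 3 lower at 2-fold, and with median scaling, where the median of all genes tested moves from -0.10 to -0.23, 12 were higher and 6 lower. Slc16a3 had the largest value, 2.98 ± 1.36, and did not pass (adjusted p = 0.0981). Of those that passed, Slc15a3 (2.80 ± 0.09), Slc4a7 (2.12 ± 0.12) and Slc6a8 (1.78 ± 0.21) led, then Slc35e4 (1.75), Slc31a2 (1.70), Slc37a2 (1.67), Slc35f5 (1.28), Slc30a4 (1.20), Slc12a7 (1.07) and Slc25a10, the dicarboxylate carrier of mitochondria (1.02). Slc30a1, which exports zinc from the cell, was the 1 that differed 2-fold the other way, and 0 did with slide as a block. It read -1.37, -1.44 and -1.39 in WT_contr, -1.86, -1.83 and -1.65 in WT_IL-4, -1.55, -1.52 and -1.45 in STAT6_contr, and -1.18, -1.10 and -0.34 in STAT6_IL-4, where array 3 stood well above the other 2. The difference was -1.01 ± 0.25 (adjusted p = 0.00848) and -0.75 without that array, and the rise in the knockout was 0.64 with it and 0.37 without it. With slide as a block the difference was -0.95 (adjusted p = 0.04) and the knockout value of 0.58 did not pass (adjusted p = 0.12).

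Between genotypes with IL-4 present, 38 steady members were higher in the knockout and 47 lower, against 29.8% and 21.3% of all genes tested, and with slide as a block 25 were higher and 31 lower. At 2-fold 1 was higher and 9 lower, with 4.63% and 5.05% of all genes tested as the background. This comparison shares its wild-type IL-4 arrays with the first one. Slc15a3 was 7.73-fold lower in the knockout, Slc4a7 4.29-fold and Slc31a2 3.83-fold. The 1 that was higher was Slc37a4 (1.30), a call lost once slide was a block (0.66, adjusted p = 0.299).

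Without IL-4 the genotypes differed in few members. Of the 148, 7 were higher and 12 lower in the knockout, beside 4.73% and 6.96% of all genes tested. Of the 12476 genes at 7 or more in all groups, 588 were higher and 999 lower. Among the 148, 3 were at least 2-fold higher and 0 at least 2-fold lower, against 0.837% and 0.339% of all genes tested. With slide as a block 1 was higher, 3 were lower and none passed 2-fold. In this comparison that fit gives the same values as leaving out knockout control 3, the only control array on slide 2. Over all 161 members the 4 at least 2-fold higher became 0 to 5 when 1 array was left out. They became 0 without wild-type control 2 or 3 or knockout control 2 or 3. The 3 were Slc2a1 and Slc2a3, the main glucose importers of many cells, and Slc37a4, which moves glucose 6-phosphate into the endoplasmic reticulum. Of those lower in the knockout, Slc45a4 was 1.53-fold lower (adjusted p = 0.00224; 0.0105 with the slide block) and Slc14a1, a urea transporter, 1.45-fold lower (adjusted p = 0.00234; 0.00623 with the slide block).

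Of the 161 members 5 had an SD over 0.5 in a group, Slc16a3, Slc2a1, Slc2a3, Slc37a4 and Slc16a11, and the first 4 carry lactate, glucose or glucose 6-phosphate. Slc16a3, which exports lactate, read 2.58, 2.09 and 1.81 in WT_contr, 2.30, 2.30 and 2.27 in WT_IL-4, 4.77, 5.64 and 5.86 in STAT6_contr, and 0.20, 2.28 and 5.25 in STAT6_IL-4. The knockout controls lay above every wild-type array, and the knockout IL-4 arrays ranged from below to far above the wild type (SD 2.54). Slc2a1 read 2.67 to 2.82 in WT_contr, 2.63 to 2.74 in WT_IL-4, then 3.62, 4.21 and 4.48 in STAT6_contr and 2.45, 2.82 and 4.23 in STAT6_IL-4.

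Slc2a3 read 2.46 to 2.57 and 2.38 to 2.47 in wild type, 3.22, 4.02 and 4.26 in STAT6_contr, and 2.59, 2.71 and 3.81 in STAT6_IL-4. Slc37a4 read 0.55 to 0.76 in WT_contr, -0.06 to 0.07 in WT_IL-4, 1.25, 1.83 and 2.18 in STAT6_contr, and 0.88, 1.06 and 1.94 in STAT6_IL-4. For all 4 genes, knockout control 1 was the lowest of its group and knockout IL-4 array 3 the highest of its group. Basigin (Bsg), the chaperone that brings lactate carriers to the cell surface, read 3.71, 4.19 and 4.31 in STAT6_contr and 2.94, 3.00 and 3.91 in STAT6_IL-4, in the same order of arrays, and 3.06 to 3.27 in wild type.

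**Figure D4:**
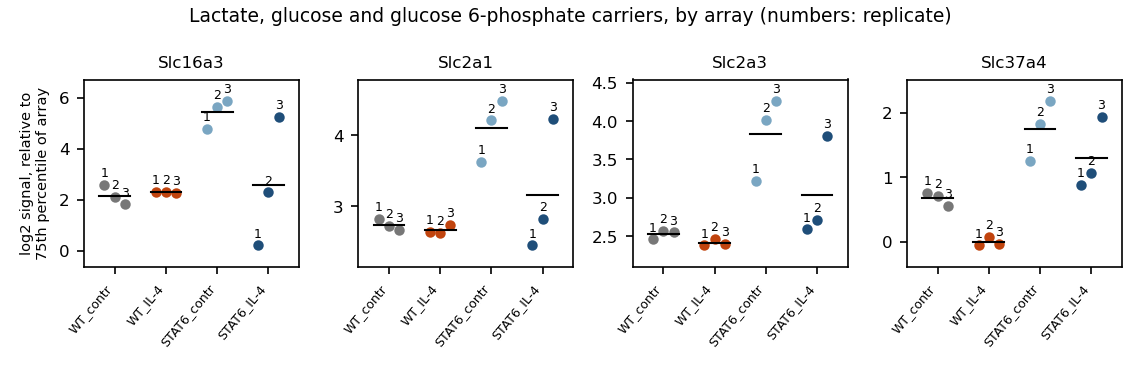
Log2 signal relative to the 75th percentile of each array (vertical axis) for Slc16a3, Slc2a1, Slc2a3 and Slc37a4, one point per array labelled with its replicate number and a line at the group mean. In each panel the arrays of each knockout group spread more widely than those of either wild-type group, with knockout IL-4 array 3 far above arrays 1 and 2. The wild-type groups of Slc37a4 do not overlap.

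Without IL-4, Slc2a1 was 2.57-fold higher in the knockout (1.36 ± 0.38, adjusted p = 0.0465), Slc2a3 2.48-fold (adjusted p = 0.0309) and Slc37a4 2.11-fold (adjusted p = 0.0352), and Slc16a3 9.60-fold (3.26 ± 0.96), which did not pass (adjusted p = 0.0534). None of the 4 passed with slide as a block, where the adjusted p was 0.112 to 0.16. In this comparison that fit gives the same values as the fit without knockout control 3, so they are not separate checks. Of the 12 fits that each left out 1 array, 9 lost the call for Slc2a1, 8 for Slc37a4 and 5 for Slc2a3. For all of these genes they included the fits without knockout control 2 or 3 and without any 1 of the wild-type controls; for Slc2a1 and Slc37a4 those without any 1 of the wild-type IL-4 arrays, and for Slc2a1 that without knockout IL-4 array 2 (adjusted p = 0.0576). Slc16a3 passed without knockout control 1 (adjusted p = 0.046), without knockout IL-4 array 1 (0.0189) and without knockout IL-4 array 3 (0.00447).

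With IL-4 in the knockout, Slc16a3 was 7.19-fold lower (-2.85 ± 0.96, adjusted p = 0.036), a call that was lost with slide as a block (adjusted p = 0.102) and without knockout IL-4 array 1 (-1.66) or 2 (-2.69) or knockout control 2 (-2.74) or 3 (-2.63); without knockout IL-4 array 3 it was -4.18 (adjusted p = 0.00036). Slc2a1 (-0.94) and Slc2a3 (-0.80) did not pass, and did without knockout IL-4 array 3 (-1.47 and -1.18) or knockout control 1 (-1.18 and -1.10). Slc37a4 (-0.46) did not pass, and did without knockout IL-4 array 3 (-0.78). The metallothioneins Mt1 and Mt2, which bind zinc, also spread in the knockout, Mt2 with 1.62, 2.96 and 4.17 in STAT6_contr and -0.17, 1.35 and 6.22 in STAT6_IL-4. What these arrays share was not tested.

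Slc4a11, of the bicarbonate transporter family, fell 2.42-fold in the knockout (-1.27 ± 0.10, adjusted p = 9.97e-06), with -0.78, -0.99 and -0.69 against -2.09, -2.11 and -2.09, and it held with slide as a block (-1.41, adjusted p = 0.000224). In wild type it read -1.52 to -1.48 without IL-4 and -2.23 to -1.81 with it, a fall of 0.51.

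The 13 members that reached the level in 1 to 3 groups are described without tests, since the values that chose them differ between groups. They included the largest single difference. Slc6a13, a transporter of GABA and taurine, read 1.25, 1.21 and 1.21 in WT_contr, -3.49, -3.75 and -3.60 in WT_IL-4, 0.85, 0.79 and 0.77 in STAT6_contr, and 0.39, 0.40 and 0.18 in STAT6_IL-4. The wild-type IL-4 arrays stood apart at the bottom, and the probe was well above background on 2 of these 3, the 1 case among the 161 members that was not so on all 12 arrays. With IL-4 it was 28.6-fold lower in wild type (log2 -4.84) and 1.40-fold lower in the knockout. Its probe lies at chr6:121287597-121287656 in mm9.

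The vitamin C transporters Slc23a1 and Slc23a2 both belong here. Slc23a2 read -1.55 to -1.52 without IL-4 and -0.44 to -0.36 with it, and -1.86 to -1.46 on the 6 knockout arrays, so that it was 2.19-fold higher with IL-4 in wild type. Slc23a1 was 2.26-fold higher, with -2.38 to -2.19 against -1.20 to -0.99, and its knockout arrays ranged from -2.36 to -1.46. Slc39a8, an importer of zinc and manganese, was 2.16-fold higher with IL-4 in wild type and gave 0.03 in the knockout.

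Slc41a3, of a magnesium transporter family, was 2.18-fold higher with IL-4 in wild type and 2.08-fold lower in the knockout, where it read -2.05, -2.11 and -1.96 without IL-4 and -2.69, -3.21 and -3.38 with it. Slc4a3, an anion exchanger, read -0.95 to -0.55 on all wild-type arrays and -0.68 to -0.65 in STAT6_contr, and -2.16, -2.55 and -2.02 in STAT6_IL-4, 2.99-fold lower with IL-4 in the knockout; the wild-type difference was 0.23. Slc29a4, a monoamine transporter, was 2.16-fold lower with IL-4 in the knockout. Slc16a11, of the monocarboxylate family, was 3.17-fold higher with IL-4 in wild type and read -1.88, -1.15 and -0.85 in STAT6_contr, and Slc25a35, a mitochondrial carrier, was 2.31-fold lower in wild type. Slc24a5, a calcium exchanger known from melanosomes, gave 0.70 in wild type and 0.56 in the knockout. The other members of this group, Slc41a2, Slc35e2 and Slc9a3r2, gave -0.24, -0.23 and 0.66 in wild type.

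**Figure D5:**
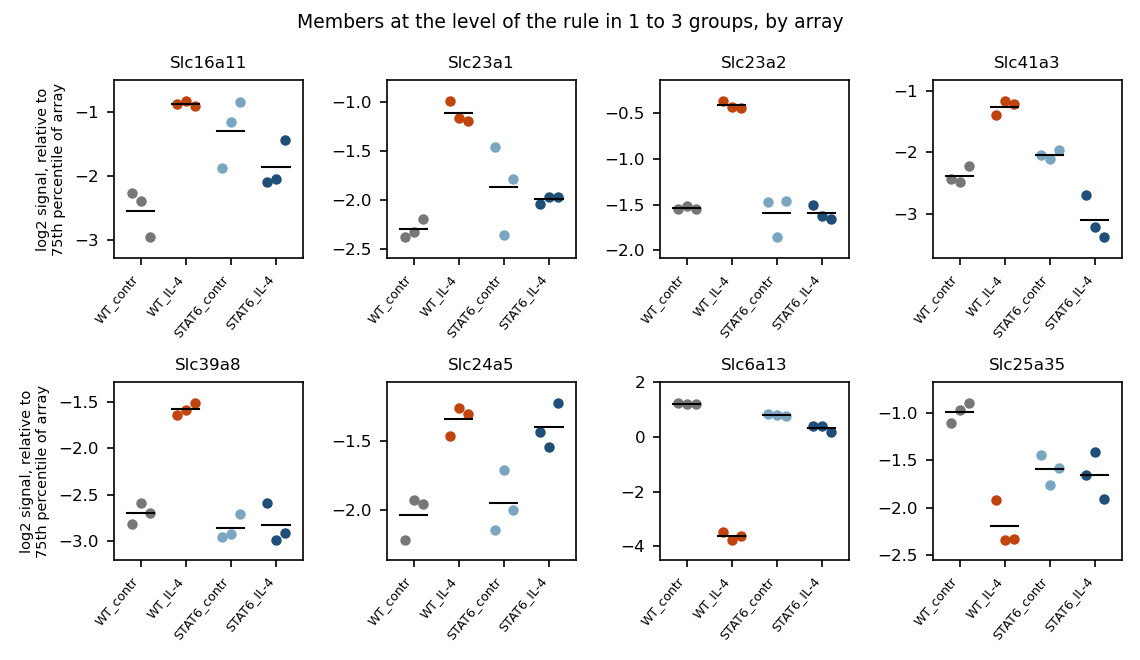
Log2 signal relative to the 75th percentile of each array (vertical axis) for 8 of the 13 members that reached the level in 1 to 3 groups, one point per array and a line at each group mean. The 3 WT_IL-4 arrays of Slc6a13 lie between -3.75 and -3.49, far below the other 9.

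Carriers and partners with other names were read beside the members. Of 17 listed, 14 were tested. In wild type 6 of these rose and 6 fell, with a median of 0.04, against 26.4% and 30.8% of all genes tested. In the knockout 7 rose and 3 fell, against 27.5% and 14.7%. Slco4a1, an organic anion transporter that carries thyroid hormone, rose 4.47-fold in wild type (2.16, adjusted p = 7.56e-09) and by 0.39 in the knockout, and Slco3a1, of the same family, rose by 1.09 and 0.79. Emb, a partner of monocarboxylate carriers, fell by 0.84 in wild type and rose by 0.31 in the knockout, and Mfsd2a, a lysophospholipid transporter, fell by 0.52 and rose by 0.48. The mitochondrial pyruvate carrier subunit Mpc2 fell by 0.23 in wild type and rose by 0.30 in the knockout, where Mpc1 rose by 0.20. Ucp2 and Ucp3, uncoupling proteins, fell by 0.79 and 0.78 in wild type and gave -0.04 and -0.07 in the knockout.

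Of 9 genes that handle zinc and iron, 8 were tested. In wild type 3 of these rose and 2 fell, against 26.4% and 30.8% of all genes tested. Hmox1, which breaks down haem, rose 3.39-fold in wild type (1.76, adjusted p = 8.03e-07), with 1.18 to 1.28 on control arrays and 2.97 to 3.00 on IL-4 arrays, and gave 0.12 in the knockout. The transferrin receptor Tfrc fell in both genotypes, by 0.27 and 0.39, and Ftl1, a ferritin subunit, rose by 0.29 in wild type and fell by 0.25 in the knockout.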

How the data were processed

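Labelled RNA (100 ng per sample, RNA integrity numbers of 9.6 to 9.9) was hybridised to 12 one-colour Agilent arrays. Per the file headers, Agilent Feature Extraction 10.7.3.1 produced the deposited intensity values, already background-corrected (processed signal). The deposited normalized table, used to choose the genes, holds the authors' gene-level log2 values; how they were normalized is not given in the sources used here. On each array 40.68% to 43.96% of 59305 non-control spots exceeded background clearly and 0 were saturated; the number of arrays limits the precision.

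The log2 of the processed signal minus the array's 75th percentile was computed (R 4.3.3, limma 3.58.1). Outlier-flagged spots (122 to 196 per array) were left out, spots of a probe averaged, and probes kept if well above background on all 3 arrays of a group: 22940 of 55681, for 16497 genes, each read from its brightest probe. Of 42 members with several kept probes, 1 (Slc9a8) had probes called in opposite directions in wild type and 16 had probes whose calls differed. A group-means model was fitted to all 12 arrays with eBayes and Benjamini-Hochberg adjustment over 16497 genes; every adjusted p printed is limma's. "Rose" and "fell" mean an adjusted p under 0.05, and a 2-fold call adds a log2 difference of at least 1. The script was tested on simulated data.

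The members, classes and lists were chosen with earlier results of these data known. Named genes are the largest rises and falls of each comparison, up to 3 of each class by adjusted p in wild type, and those at the level limit; the others were named after their values were seen. Alternatives covered scaling, background correction, the dim-probe filter, the probe used, the deposited values, the variance model, the arrays in the fit, slide, replicate number, the fold and level limits and each array left out. Gene positions of probes are in mm9, per the file headers; promoters are in GRCm38.p6 and were not matched to them. Values of some genes are not reported here.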

Additional observations from a re-analysis of the deposited data

Results flagged for a closer look

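Over the 161 genes, the IL-4 response differed at least 2-fold between wild type and knockout in 19 by the limma test of the difference itself, of which 11 were steady members. Among these the log2 differences were 2.80 for Slc15a3, 2.12 for Slc4a7, 1.78 for Slc6a8, 1.75 for Slc35e4, 1.70 for Slc31a2, 1.67 for Slc37a2, 1.28 for Slc35f5, 1.20 for Slc30a4, 1.07 for Slc12a7, 1.02 for Slc25a10 and -1.01 for Slc30a1. Among the members that reached the level in 1 to 3 groups, where such a difference is part of how they entered and the test supports nothing, they were -4.36 for Slc6a13, 2.23 for Slc16a11, 2.18 for Slc41a3, 1.81 for Slc4a3, 1.30 for Slc23a1, -1.14 for Slc25a35, 1.13 for Slc23a2 and 1.08 for Slc39a8. Groups of 3 arrays are too small for the test for a single array far from the others, so the spread of Slc16a3, Slc2a1, Slc2a3 and Slc37a4 is given as values only.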

How the results depend on the processing

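Counts below are members changed at least 2-fold, over all 161. They include the 13 that entered through 1 to 3 groups, for which a test supports nothing. The counts therefore show only how calls move with the processing. Over the 148 steady members alone they were 16, 2, 11, 3 and 10, in the order of the comparisons below. For IL-4 in wild type the 23 became 14 with normexp background correction, 14 with the deposited values and 99 with no fold minimum, and 21 to 25 when 1 array was left out. For IL-4 in the knockout the 5 became 3 with quantile normalization, 3 with median scaling, 2 with normexp, 2 with the deposited values, 75 with no fold minimum, 1 with a level of at least 8, 2 with 7 or more in all 4 groups, and 3 to 7 when 1 array was left out. For the difference of the responses the 19 became 12 with normexp, 11 with the deposited values, 84 with no fold minimum, 30 with a level of at least 6, 11 with 8, 11 with 7 in all 4 groups, and 18 to 22 when 1 array was left out. Between genotypes without IL-4 the 4 became 0 with no filter on dim probes, 0 with slide as a block, 22 with no fold minimum and 0 to 5 when 1 array was left out. Between genotypes with IL-4 the 15 became 95 with no fold minimum, 24 with a level of at least 6 and 15 to 16 when 1 array was left out. The cause of these shifts was not tested, apart from limits that by construction admit more or fewer genes.

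With a replicate block the counts were 23, 5, 19, 4 and 15, as without it. Deviations of same-numbered arrays from their group means correlated at -0.24 to 0.39. With 3 arrays per group this range cannot show whether the numbers mark pairs. No named gene's difference changed sign in a call: over all alternatives 6284 values kept their side of the threshold, 235 lost it and 88 gained it. The comparison of responses was not fitted on the arrays of the compared groups alone, since it needs all 4.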
